A study of Mus musculus with 12 samples.

Results

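Peaks of open chromatin that were centred on simple repeats or on low-complexity sequence were examined in the master peak-list of 6 mouse blood cell types. A peak was included when its detailed HOMER annotation named a repeat of the class Simple_repeat or Low_complexity at the peak centre. This gave 328 of 84243 peaks, or 0.389% of the list and 2.57% of the 12746 peaks annotated to a repeat of any kind. Of the 328, 179 were simple repeats and 149 were low-complexity sequence. ATAC-seq, in which a transposase cuts exposed DNA and inserts sequencing adapters, had been done on cells sorted from wild-type C57BL/6 mice that were 8 to 12 weeks old. Bone marrow gave B cells, granulocyte/macrophages (GMs), erythroid progenitors (EPs), megakaryocyte progenitors (MkPs) and hematopoietic stem cells (HSCs), and thymus gave T cells. Each cell type had 2 replicates, so the study had 12 samples, and no group carried a genetic change or a treatment. The list is pooled over the 12 samples and holds 0 columns of values per sample. Which cell type gave rise to a peak, its depth and its replicate error are therefore unknown, no statistical test was made between groups of peaks, and the 95% Wilson intervals given with shares cover counting error only.

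Simple repeats, or microsatellites, are short units of DNA repeated head to tail. They gain and lose copies when DNA polymerase slips, which makes them among the most variable sites in a genome. Low-complexity sequence is dominated by 1 base or by a pair of bases without a fixed unit. Runs of alternating purine and pyrimidine, such as CA repeats, can adopt left-handed DNA, and clustered runs of G can fold into G-quadruplexes. Units made of C and G often lie near promoters and CpG islands and hold the letters that SP and KLF zinc finger factors recognise.

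The sequence of 1 peak is shown from each of 5 of the 8 largest repeat families, because these sequences make clear what the annotation names cover. Each was taken by the full length of the perfect tract, of any unit, with the most bases in the central 200 bp, among peaks outside exons on the chromosomes considered for display, and is read from the plus strand of GRCm38 (mm10), 5′ to 3′. For families with a repeat unit, capitals mark the longest perfect tract of that unit, with the bases up to the peak centre and 20 bp of flank in lower case.
(TG)n, chr2:52252307-52252418, in an intron of Neb: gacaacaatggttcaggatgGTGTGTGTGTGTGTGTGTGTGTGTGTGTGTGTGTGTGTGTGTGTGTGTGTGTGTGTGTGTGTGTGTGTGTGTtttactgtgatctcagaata
(CAG)n, chr1:106749072-106749139, in an intron of Kdsr: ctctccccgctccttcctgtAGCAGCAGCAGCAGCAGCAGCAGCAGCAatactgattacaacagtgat
(CCTG)n, chr16:78238215-78238277, intergenic near E330011O21Rik: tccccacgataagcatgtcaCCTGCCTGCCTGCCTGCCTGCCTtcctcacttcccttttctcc
The low-complexity peaks are shown over the central 121 bp. Capitals mark runs of at least 3 C or 3 G in the G-rich peak and runs of at least 8 pyrimidines or purines in the CT-rich peak.
G-rich, chr11:106640219-106640339, intergenic near Tex2: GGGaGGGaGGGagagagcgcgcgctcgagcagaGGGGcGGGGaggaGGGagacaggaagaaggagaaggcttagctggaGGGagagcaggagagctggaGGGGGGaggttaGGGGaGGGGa
CT-rich, chr2:93180849-93180969, intergenic near Trp53i11: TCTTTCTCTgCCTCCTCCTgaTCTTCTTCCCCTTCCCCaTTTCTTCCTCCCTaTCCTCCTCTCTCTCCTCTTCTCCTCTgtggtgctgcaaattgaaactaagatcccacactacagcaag
The G-rich peak held 10 marked runs in 121 bp. The TG tract ran for 72 bp without a mismatch, and the CAG tract for 28 bp.

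The annotation names were first compared with the reference sequence, since they choose the peaks. In the central 51 bp, the 44 C-rich peaks had a median of 54.9% C, with a range of 35.3 to 72.5%. The median over intron and intergenic peaks off repeats and CpG islands, used throughout as the comparison and called off-repeat peaks below (52028 peaks), was 25.5% C. The 37 G-rich peaks had a median of 52.9% G. The 24 CT-rich peaks had a median of 86.3% C and T, the 14 GA-rich peaks 87.3% G and A, and the 23 GC_rich peaks 84.3% G and C. The named bases were above the 95th percentile of off-repeat peaks in 43 of 44 C-rich, 35 of 37 G-rich and all 24 CT-rich, 14 GA-rich and 23 GC_rich peaks. For the 179 simple repeats, the best 30-bp match to the annotated unit near the centre had a median identity of 90.0%, against 40% for the same units in off-repeat peaks. The match was perfect in 41 peaks, and 3 of the 179 were not above the 95th percentile of off-repeat peaks.

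The peaks carried 73 different repeat names. Pooling each unit with its rotations and its reverse complement left 51 families, of which 23 held 1 peak each. C-rich or G-rich sequence was the largest family, with 81 peaks, 24.7% of the 328 (20.3 to 29.6%). It was followed by CA repeats, with 46 peaks or 14.0% (10.7 to 18.2%), of which 25 were annotated as (TG)n and 21 as (CA)n. CT-rich or GA-rich sequence had 38 peaks (11.6%), GC_rich sequence 23 (7.01%) and the 5-base unit CCCCG, with its complement CGGGG, 16 (4.88%). Units of AGC, of AGCCC and of AGGC had 9 peaks each. Repeats of GA, the other common dinucleotide, had only 4 peaks, and AT_rich sequence had 2.

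**Figure D1:**
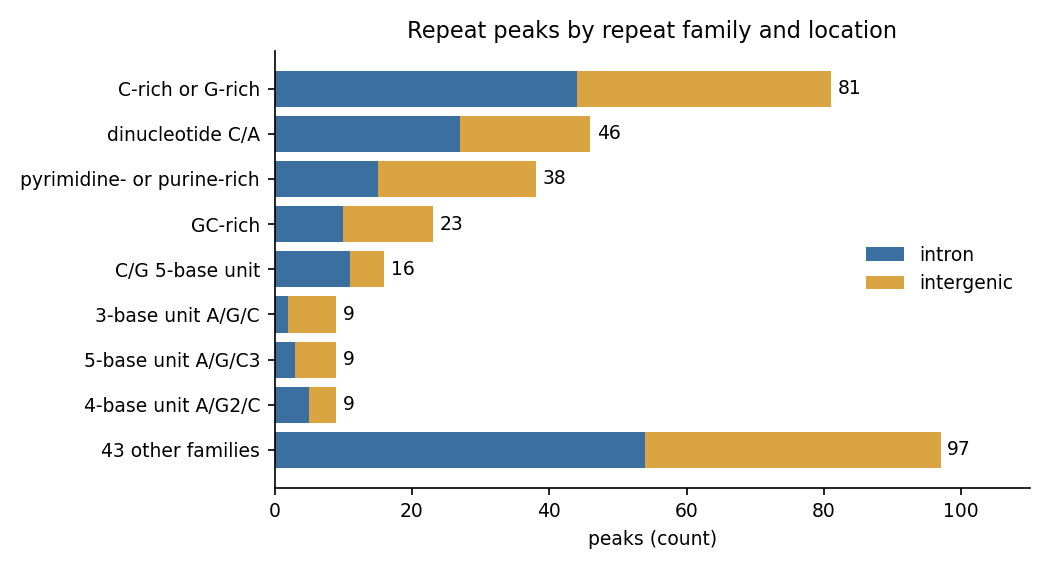
Number of peaks (horizontal axis, count) on each of the 8 largest repeat families and on the 43 other families together, split into intron (blue) and intergenic (yellow). C-rich or G-rich sequence, with 81 peaks, and the C/A dinucleotide, with 46, were the largest, and figures beside the bars give the totals.

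Among the simple repeats, units of 5 bases (53 peaks) and 2 bases (51) were the most frequent, ahead of units of 4 bases (34), 3 bases (25), 6 bases (14) and 1 base (2). Most units were rich in G and C. In 110 of the 179 simple repeats G and C made up more of the unit than A and T, in 60 both made up the same share, and in 9 A and T made up more. The unit consisted of G and C alone in 23 peaks and of A and T alone in 2. A CpG, the dinucleotide at which mammalian DNA is methylated, was part of the repeated unit in 32.

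The G and C bias extended to whole peaks. Median GC content over 499 bp was 50.9% (quartiles 46.5 and 57.1%) on repeats, against 47.7% (43.7 and 51.7%) in off-repeat peaks and 65.5% in the 1861 intron and intergenic peaks on CpG islands. Families differed widely. The median was 67.1% in GC_rich peaks, with 38 CpG dinucleotides a peak, and 59.0% in CCCCG peaks, with 20.5 CpGs. In CA repeats it was 47.1% with 6 CpGs, and in CT-rich or GA-rich peaks 48.7% with 4 CpGs. The repeat itself adds to these values, because composition is what the annotation selects.

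Of the 328 peaks, 171 (52.1%, 46.7 to 57.5%) were in introns and 157 were intergenic. The share in introns was close to the 53.6% of off-repeat peaks. No peak was annotated to a promoter, exon, untranslated region or transcription termination site, which follows from the order of the annotation: all 12746 repeat peaks of any kind were intronic or intergenic, since HOMER assigns a repeat only to these. Within genes, repeat peaks were often in the first intron, with 82 of 171 (48.0%, 40.6 to 55.4%) against 34.2% (33.7 to 34.8%) in off-repeat peaks and 32.9% (31.7 to 34.1%) in intron peaks on other repeats. In peaks on CpG islands, this share was 82.9%. Low-complexity sequence had 40 of 73 intron peaks in the first intron and simple repeats 42 of 98, and the intervals of these 2 shares overlapped. The families did not place alike. CT-rich or GA-rich sequence was in the first intron in 4 of 15 intron peaks, C-rich or G-rich sequence in 26 of 44, and GC_rich sequence in 9 of 10.

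For repeats in introns, the strand of the annotation could be read relative to the host gene. C-rich sequence was on the transcribed gene's own strand in 23 peaks and G-rich sequence in 21. CA was on that strand in 12 and TG in 15, and pyrimidine-rich sequence in 10 and purine-rich in 5.

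The median distance to the nearest transcription start site (TSS) was 24696 bp (quartiles 7527 and 61479 bp), close to the 24674 bp of off-repeat peaks and the 23865 bp of the 12418 peaks on other repeats. The similar medians hid a difference near the TSS. Of the 328 peaks, 17 (5.18%, 3.26 to 8.14%) were within 500 bp of a TSS, against 325 off-repeat peaks (0.625%, 0.561 to 0.696%) and 11 peaks on other repeats (0.0886%). On CpG islands, which the off-repeat peaks leave out, 24.3% of peaks were this near. Over all 66635 intron and intergenic peaks, with islands and repeats included, 806 (1.21%) were this near. The repeat peaks were not filtered by GC or CpG content, and the part of this in the contrast with off-repeat peaks was not tested. The 17 were all downstream of the TSS and all in the first intron, since HOMER places all 7583 peaks up to 500 bp upstream of a TSS in its promoter class. They had a median GC content of 68.9% and a median of 46 CpGs, and 12 had a GC content above 60%. Within 10 kb were 97 peaks (29.6%, 24.9 to 34.7%, against 26.2%), and beyond 100 kb were 51 (15.5%, 12.0 to 19.9%, against 14.0%). For both, the interval included the off-repeat share.

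Median distance differed by repeat family. GC_rich peaks had the shortest median distance of the 8 largest families, 9842 bp, with 12 of 23 within 10 kb and 4 within 500 bp. CCCCG peaks followed, with 13148 bp, 7 of 16 within 10 kb and 3 within 500 bp. C-rich or G-rich peaks had a median of 20822 bp, with 28 of 81 within 10 kb and 6 within 500 bp. CT-rich or GA-rich peaks had 26144 bp and no peak within 500 bp. CA repeats had 32656 bp, with 12 of 46 within 10 kb and 2 within 500 bp. The 9 peaks each on AGGC and AGC had medians of 39629 and 43855 bp, with 0 and 1 within 10 kb. Distances also varied widely within families, with quartiles of 834.5 and 44119 bp for GC_rich and of 9579 and 59719 bp for CA repeats.

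**Figure D2:**
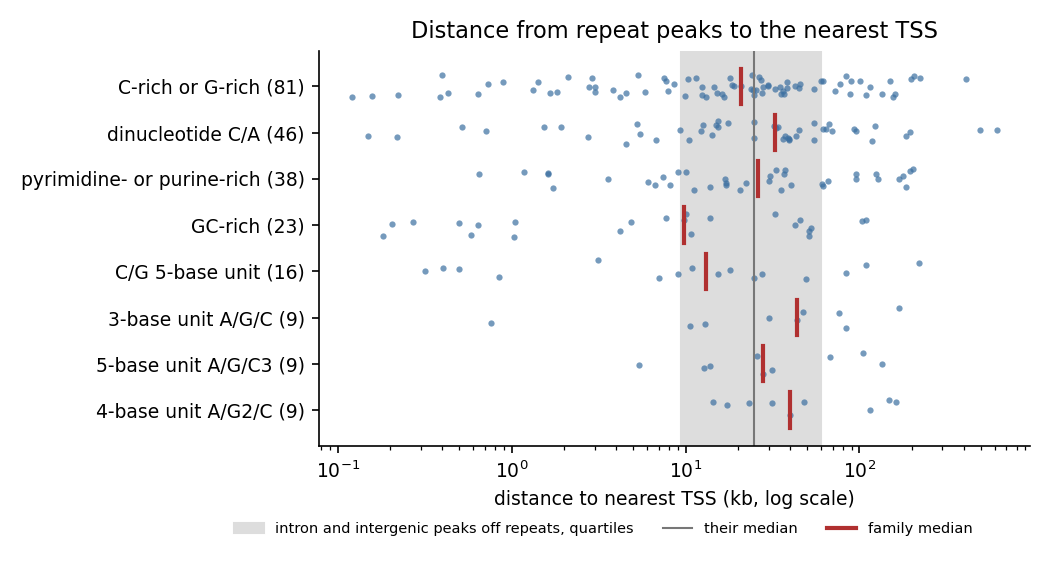
Distance to the nearest TSS (horizontal axis, kb, log scale) of each peak in the 8 largest families, 1 point a peak, with the family median as a red bar and the number of peaks in brackets. The grey band and line give the quartiles and median (24674 bp) of off-repeat peaks, and GC-rich peaks have a median of 9842 bp and the C/A dinucleotide 32656 bp.

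The 10 peaks nearest a TSS were all in the first intron of the named gene, between 120 and 386 bp from its start. Of these, 4 were C-rich or G-rich, at Stau2 (120 bp, an RNA-binding protein), Fbxl2 (157 bp, an F-box protein of ubiquitin ligases), Trmt2b (222 bp, a transfer RNA methyltransferase) and Dedd (386 bp, a death effector domain protein). GC_rich sequence accounted for 3, at Arf5 (181 bp, a small GTPase of vesicle traffic), Pvr (204 bp, a cell adhesion receptor) and Zfp236 (270 bp, a zinc finger protein). At Ctcfl, the germ line paralog of CTCF, a CCCCG repeat lay 318 bp from the TSS. The remaining 2 were CA repeats. One, 150 bp from the TSS of Csf1r, the receptor for macrophage colony-stimulating factor, had a perfect tract of 36 bp. The other, 218 bp from the TSS of Lpar5, a receptor for lysophosphatidic acid, had a perfect tract of 21 bp. These 2 peaks had GC contents of 50.3 and 52.5%, below the other 8, which ranged from 59.1% at Trmt2b to 78.4% at Zfp236.

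The nearest genes numbered 317, of which 11 had 2 repeat peaks and none had more. Protein-coding genes were nearest in 280 peaks and non-coding RNA genes in 44. Genes with 2 peaks usually had different repeats in them. Csmd3, a large membrane protein, had (GGGGA)n with a perfect tract of 31 bp and (CAGA)n with 25 bp in its introns. Ctcfl had a C-rich peak 38468 bp from its start besides the CCCCG repeat. Maml3, a coactivator of Notch, had a G-rich peak in intron 1, 2792 bp from its TSS, and (TGG)n, with a 38-bp tract, 76412 bp upstream. Pik3cg, the catalytic subunit of the leukocyte phosphoinositide 3-kinase gamma, had the same repeat name in both, with (TG)n 39326 bp downstream and 15050 bp upstream of its TSS. The longest perfect tract was 29 bp of CA in the downstream peak and 49 bp of GA in the upstream one. Rasgrp1, a Ras activator in T cells, had (CACTG)n in intron 2 and CT-rich sequence 96105 bp upstream. The other genes named by this count were Caap1, Gm15326, Ldlrad4, Map4k4 and Sipa1l2. Several have many peaks of all kinds, with 41 nearest Gm15326 and 37 nearest Ldlrad4, so that 2 on repeats is a small part of them.

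From a list of 84 genes of blood cell identity and growth factor signalling, 2 peaks had a member as their nearest gene, 0.610% (0.167 to 2.20%) against 1.05% of off-repeat peaks. They were the CA repeat at Csf1r and a (CTCG)n repeat 164064 bp upstream of Lef1, a transcription factor of T cell development. With 2 peaks, a lower share than off repeats was not detectable. None of the 149 low-complexity peaks was nearest a gene of the list, which allows a share of up to 2.51% by the Wilson interval.

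Repeat peaks had other peaks close by. Another peak lay within 5 kb of 196 (59.8%, 54.4 to 64.9%), against 52.4% (51.9 to 52.8%) of off-repeat peaks, and the median distance to the nearest peak was 3439 bp against 4616 bp. Peaks on CpG islands had 65.4% and 2100 bp. Of the repeat peaks, 14 lay within 100 kb of a second repeat peak, and the smallest distance was 25116 bp. The count to be expected from placement alone was not worked out. The nearest gene also had a peak within 500 bp of its TSS for 234 peaks (71.3%, 66.2 to 76.0%, an interval that includes the 66.4% of off-repeat peaks). By chromosome, and leaving out Y with 0 of 11 peaks, they made up from 0.274% of peaks on chromosome 1 (16 peaks) to 0.656% on X (12 peaks), and chromosome 2 had the most, 26. On the X were 3.66% of repeat peaks (2.11 to 6.28%) and 1.79% of off-repeat peaks (1.68 to 1.91%). The interval included the 2.63% of peaks on other repeats and the 3.55% of peaks on CpG islands.

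The tracts within the peaks were read from the reference sequence. A perfect tract of at least 20 bp, with a unit of 1 to 6 bases, was found in the central 200 bp of 112 of the 328 peaks (34.1%, 29.2 to 39.4%), and in 2.36% of off-repeat peaks. This difference is set by the way the peaks were chosen. Such a tract was found in 103 of 179 simple repeats and in 9 of 149 low-complexity peaks. It covered the peak centre itself in 73, and the tracts had a median length of 29 bp and a maximum of 89 bp. Among the 8 largest families CA repeats had such a tract most often, in 37 of 46, with a median of 36 bp and the annotated unit in 34 of the 37. CCCCG repeats had such a tract in 3 of 16 and none of 30 bp or more.

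The repeats of the genome were then counted against all peaks of the list, not only the 328. The 21 chromosomes have 1036508 perfect tracts of at least 20 bp, and 623 of them (0.601 per 1000, 0.556 to 0.650) had their midpoint within 50 bp of the centre of a peak of any annotation. For comparison, 3.21 per 1000 assembled bases lie that close to a peak centre. CA tracts, which are the second family among the peaks, were abundant in the genome and seldom at a peak centre, with 183 of 279755, or 0.654 per 1000 (0.566 to 0.756). Tracts of GA were at a centre in 29 of 125128 (0.232 per 1000, 0.161 to 0.333) and tracts of A in 26 of 71219 (0.365 per 1000, 0.249 to 0.535). The authors had left out reads that map to several places, and the part of this in the counts and densities of tracts given here was not tested. Units of G and C alone were rarer in the genome and more often at a centre. CCCCG tracts were at a centre in 37 of 292 (127 per 1000, 93.3 to 170), and 119 of the 292 were inside a peak. Of the 328 peaks, 2 had CCCCG as their longest such tract in the central 200 bp. How many of the 119 tracts lay in the 328 peaks was not counted. CCG tracts were at a centre in 30 of 400 (75 per 1000, 53.0 to 105). Tracts of AGCCC had 15 of 297 (50.5 per 1000), of AGGC 24 of 2391 (10.0 per 1000), and of AGC 14 of 3135 (4.47 per 1000, 2.66 to 7.48, an interval that includes 3.21). Not all G-rich units were often at a centre, with AGG at 17 of 18346 (0.927 per 1000, 0.579 to 1.48), AGGG at 14 of 20279 (0.690) and AGGGG at 5 of 5444 (0.918), each below 3.21. A unit with more A than C, AAAACC, had 25 of 1980 (12.6 per 1000, 8.57 to 18.6).

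**Figure D3:**
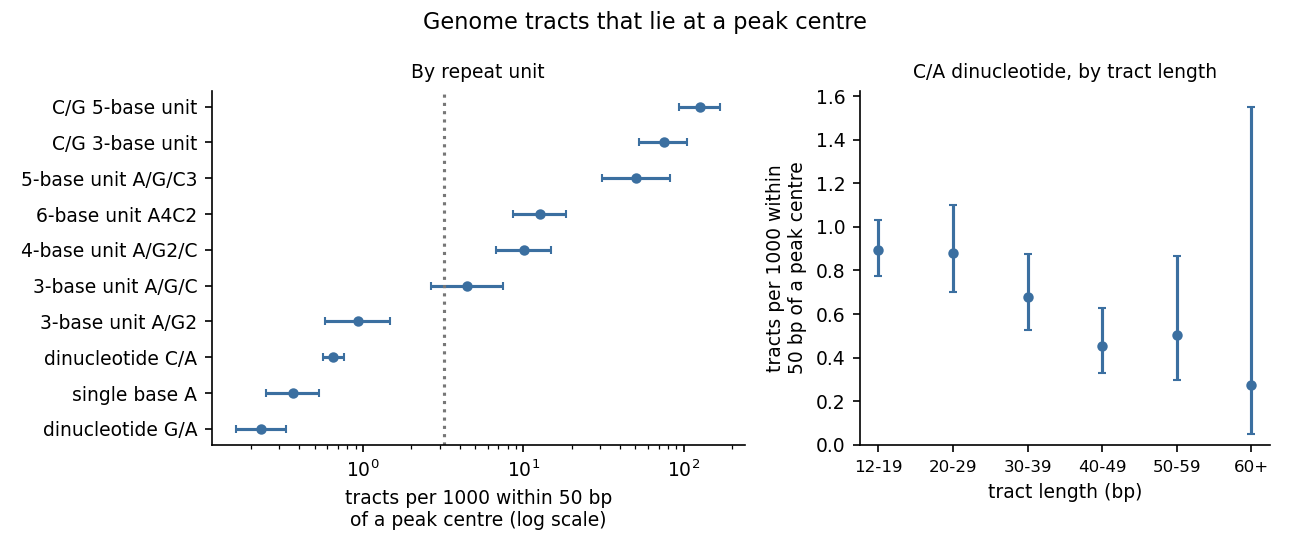
Left, perfect tracts of at least 20 bp with a midpoint within 50 bp of a peak centre, per 1000 tracts of the genome (horizontal axis, log scale), for the 10 units with the most such tracts, with 95% Wilson intervals and, dotted, the 3.21 per 1000 of all assembled bases that lie as close. Right, the same share for C/A tracts by tract length in bp, which is 0.894 per 1000 at 12 to 19 bp and 0.454 at 40 to 49 bp.

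The share of CA tracts at a peak centre was lower at 40 to 49 bp than in the shortest tracts. It was 0.894 per 1000 (0.775 to 1.03) for tracts of 12 to 19 bp, 0.878 for 20 to 29 bp, 0.680 for 30 to 39 bp and 0.454 (0.328 to 0.628) for 40 to 49 bp. At 50 to 59 bp it was 0.506 (0.296 to 0.866). From 60 bp, 1 of 3650 tracts was at a centre, 0.274 per 1000 (0.0484 to 1.55). The share anywhere inside a peak did not fall with length, from 10.9 per 1000 at 12 to 19 bp to 13.1 at 40 to 49 bp. The 37 CA repeat peaks with a tract of at least 20 bp in the central 200 bp, which covered the centre in 28, had a median longest tract of 36 bp. In 3 of the 37 this longest tract was of another unit. The median was 36 bp over all CA tracts of at least 20 bp in the genome and 32 bp (quartiles 26 and 40 bp) over the 183 within 50 bp of a peak centre.

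Density around peak centres showed the same contrast by distance. CA tracts had 21.0 per Mb within 50 bp of a centre, 68.0 per Mb at 50 to 99 bp and 138 per Mb at 350 to 399 bp, against 106 per Mb over the genome. GA tracts rose from 3.48 per Mb at the centre to 55 per Mb at 350 to 399 bp, and A tracts from 3.12 to 40.9 per Mb. CCCCG tracts had 4.32 per Mb at the centre, 5.10 per Mb at 50 to 99 bp and 0.617 per Mb at 350 to 399 bp, against 0.110 per Mb over the genome. CCG tracts had 3.60 per Mb at the centre, 5.58 at 50 to 99 bp and 3.21 at 350 to 399 bp, against 0.151 over the genome.

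**Figure D4:**
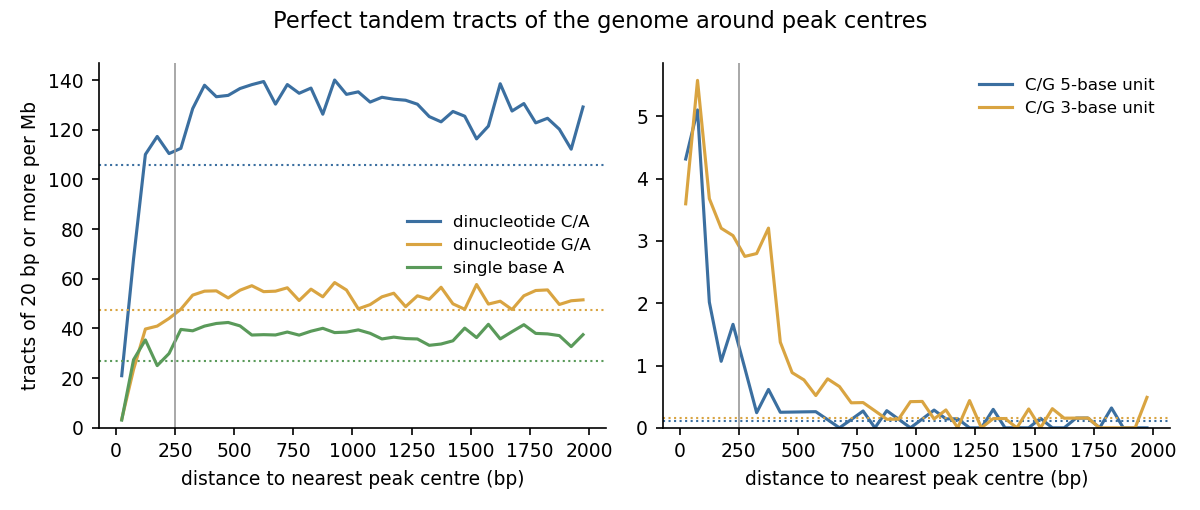
Perfect tracts of at least 20 bp per Mb of sequence (vertical axis) by distance of the tract midpoint to the nearest peak centre (horizontal axis, bp, in steps of 50 bp), over all 84243 peaks, with the genome density dotted and the peak edge as a grey line. The dinucleotide and single-base tracts on the left had a lower density at the centre (21.0 per Mb for C/A) than over the genome, and the C and G units on the right a higher one (4.32 per Mb for the 5-base unit against 0.110 over the genome).

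Many peaks on such tracts carried another annotation. A perfect tract of at least 20 bp lay on or within 10 bp of the centre of 242 peaks, of which 90 were among the 328. Of the 242, 132 were not annotated to a repeat, and 50 were in the promoter class and 8 in the 5′ untranslated region class. The longest tract in the central 200 bp, which need not be the one at the centre, was of CA in 66, GA in 15 and CCCCG in 13.

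Motifs of blood transcription factors were searched as letters on both strands of the 499 bp, which describes the sequence and shows no binding. The SP letters CCGCCC, a GC box, were in 113 peaks (34.5%, 29.5 to 39.7%) against 13.1% (12.8 to 13.4%) of off-repeat peaks and 24.1% of all peaks. They overlap the repeat unit itself, and were in all 16 CCCCG and all 23 GC_rich peaks, in 40 of 81 C-rich or G-rich peaks and in 5 of 46 CA repeats. With perfect tracts of at least 12 bp masked, 104 peaks kept them. The KLF letters CCACNCCC were in 89 (27.1%, 22.6 to 32.2%, against 18.1%), and C-rich or G-rich peaks had 31 of these.

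Some motifs were less frequent on repeats than off them. The repeat itself takes up part of the sequence searched, and its part in these lower shares was not tested. The E-box CAGCTG, bound by basic helix-loop-helix factors, was in 67 peaks (20.4%, 16.4 to 25.1%) against 31.2% (30.8 to 31.6%). The RUNX letters TGTGGTT were in 34 (10.4%, 7.51 to 14.1%) against 18% (17.7 to 18.4%), with 4 of 81 in C-rich or G-rich peaks and 10 of 46 in CA repeats. For CTCF, an insulator protein searched as CACNAGNGG, there were 19 (5.79%, 3.74 to 8.87%) against 10.9% (10.7 to 11.2%). The C/EBP letters TTGCNNAA had 16.8% (13.1 to 21.2%) against 21.5% (21.2 to 21.9%). For the GATA letters, AGATAA, the 25.3% (20.9 to 30.3%) on repeats had an interval that included the 27.5% off repeats. The same held for PU.1, GAGGAAGT, with 11.0% (8.03 to 14.8%) against 9.74%, for which CT-rich or GA-rich sequence, itself made of G and A on 1 strand, supplied 10 of 36 peaks. It also held for IRF, GAAANNGAA (18.9% against 17.8%), TCF, CTTTGAT (5.49% against 7.59%), and, narrowly, AP-1 and NF-E2, TGANTCA (13.7%, 10.4 to 17.9%, against 17.4%). The E-box CAGGTG had 27.7% (23.2 to 32.8%), with the off-repeat 33.1% just outside and the 30.0% of peaks on other repeats inside. The ETS letters CCGGAAGT were in 1 peak (0.305%, 0.0538 to 1.71%), and in 1.02% of off-repeat peaks.

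**Figure D5:**
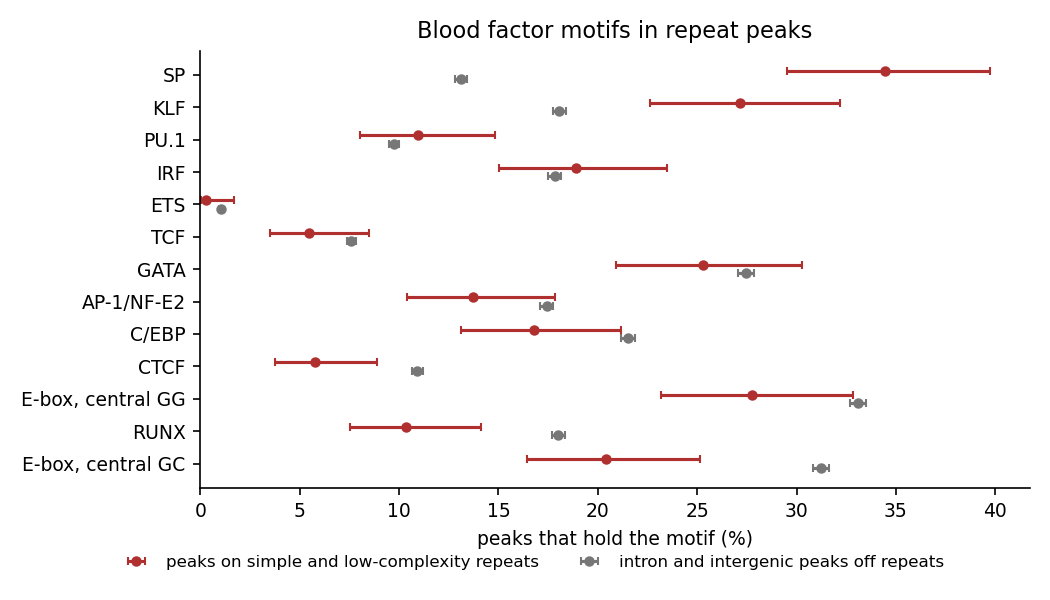
Share of peaks that hold each motif (horizontal axis, percent) among the 328 peaks on simple and low-complexity repeats (red) and the 52028 off-repeat peaks (grey), with 95% Wilson intervals, ordered by the difference. SP (34.5 against 13.1%) and KLF were more frequent on repeats, and RUNX (10.4 against 18%) and the E-box with a central GC (20.4 against 31.2%) less frequent.

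GC content moves with these shares, so they were also read within bands of GC content, a comparison chosen after seeing the data. Below 45% GC, the SP letters were in 4.62% of 65 repeat peaks and 4.60% of off-repeat peaks. From 50 to below 55% GC they were in 31.8% of 85 (22.8 to 42.3%) against 18.1%, and from 60% GC in 85.0% of 60 (73.9 to 91.9%) against 64.4%. The SP letters hold a CpG, and the off-repeat peaks leave out CpG islands while the repeat peaks were not filtered by CpG content. Bands of GC content do not match the sets for this, and its part in the SP contrast was not tested. The E-box CAGCTG was in a lower share of repeat peaks in each of the 5 bands, from 9.23% against 21.3% below 45% GC to 23.3% against 42.6% from 60% GC. The interval of the repeat peaks included the off-repeat share in the band from 50 to below 55% GC and not in the other 4. RUNX was also lower in each band, but in all 5 the interval included the off-repeat share, as at 9.41% (4.85 to 17.5%) against 16% from 50 to below 55% GC. For CTCF the interval likewise included the off-repeat share in all 5 bands. KLF was higher on repeats in the 3 bands below 55% GC, at 20% (12.1 to 31.3%) against 9.05% below 45% GC. It was lower in the others, at 31.7% (21.3 to 44.2%) against 43.5% from 60% GC. Only below 45% GC did the KLF interval leave out the off-repeat share.

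Clustered runs of G, the letters that can form a G-quadruplex, were more frequent on repeats than in off-repeat peaks. At least 4 runs of 3 or more G, spaced 1 to 7 bases apart on either strand, were in 164 of the 328 peaks (50%, 44.6 to 55.4%), against 12.0% (11.7 to 12.3%) off repeats, 8.47% on other repeats and 48.3% (46.0 to 50.5%) on CpG islands. This pattern was also chosen after seeing the data, and the excess follows in part from the names by which the peaks were chosen. All 16 CCCCG and all 9 AGCCC peaks had it, as did 20 of 23 GC_rich and 56 of 81 C-rich or G-rich peaks. CA repeats had it in 11 of 46 and AGGC repeats in 0 of 9. Below 45% GC it was in 23.1% of repeat peaks (14.5 to 34.6%) and 4.07% of off-repeat peaks.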

How the data were processed

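ATAC-seq peaks from 12 samples were used as 1 annotated list. Reads had been mapped to mm10 by the authors in the ENCODE pipeline for ATAC-seq, leaving out multimapping reads. They concatenated the optimal list of each cell type, kept non-overlapping peaks with chromVAR and annotated them with HOMER, version 4.10.2 in the submitters' processing notes. Position and distance to the TSS, in bp, were used as deposited by the authors. The peak score they deposited was 0 in every peak and was not used. Depth per sample is unknown.

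Peak sequences, curated transcripts and tracts came from RefSeq GRCm38.p6, the assembly of mm10. Perfect tracts had units of 1 to 6 bases and at least 12 bp, and 20 bp unless stated. Units were pooled with rotations and complement. The host gene of an intron is that of the transcript in the annotation. Of 328 distances to a TSS, 279 were within 2 bp of RefSeq. Sequences on chromosome 18 were not displayed, and those of 3 families are not reported here. The tract search was tested on simulated data. Software was numba 0.67.0, scipy 1.17.1, pandas 2.3.3, numpy 2.4.6, matplotlib 3.10.9 and Python 3.11.15.

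The peaks, the gene and motif lists and the settings were chosen with earlier results of these data known. Named were the 10 genes nearest most repeat peaks (ties by symbol), the 10 peaks nearest a TSS, peaks nearest a listed blood gene, and for each of the 8 largest families the peaks with the longest tract and nearest a TSS. Alternatives concerned the annotation rule, pooling of units, tract length and window, gene models, distance limits and the sequence searched. Values per cell type were not analysed here.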

Additional observations from a re-analysis of the deposited data

How the results depend on the processing

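No paired analysis was possible because the list holds no value per sample, and a stricter peak score could not be applied because the score is 0 throughout. Limits on counts were set by the definition. Without low complexity 179 peaks remained, against 328. As annotated, with strands apart, the largest CA name had 25 of the 46 peaks and C-rich 44 of the 81. Read from the longest perfect tract of at least 20 bp, CCCCG had 2 peaks against 16. Tracts in the central 200 bp were found in 261 peaks from 12 bp and in 53 from 30 bp, against 112. Within 20 kb of a TSS were 150 peaks against 97, within 100 bp 0 and within 1000 bp 30 against 17, and the blood list had 1 peak within 100 kb against 2. The 0 within 100 bp is set at least in part by the annotation, whose promoter class takes all peaks up to 500 bp upstream. Anywhere inside a peak, 12.8 per 1000 CA tracts and 408 per 1000 CCCCG tracts were found, since the window is wider, against 0.654 and 127. The other alternatives to these counts moved them by less than 1.5 times, including autosomes only (316 peaks) and RefSeq gene models (174 intron, 153 intergenic, 1 exon). A perfect tract at the centre in place of the annotation also gave a count within this limit, 242 peaks. These were mostly different peaks, since only 90 of the 242 were among the 328. Of 13 motif counts, 11 moved with the search limited to the central 200 bp and 0 with tracts masked, which leaves imperfect repeats in place. In the central 200 bp, the interval on repeats no longer included the off-repeat share for AP-1 and NF-E2 (5.79%, 3.74 to 8.87%, against 9.14%) and TCF (0.915%, 0.312 to 2.65%, against 2.96%), and came to include it for the E-box CAGGTG (12.8%, 9.61 to 16.9%, against 16.1%). The repeat by which the peaks were chosen lies in this window and leaves less other sequence to search. Its part in these lower shares was not tested.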

Other observations

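The peak nearest a TSS among the 38 CT-rich or GA-rich peaks lay in the first intron of Septin8, a septin of the cytoskeleton, by its RefSeq transcript, 647 bp from the TSS. The gene column of the list gave a date in place of the symbol, as spreadsheets do with symbols of this kind, and 143 peaks, 2 of them on repeats, had such a name. A (CAG)n repeat with a perfect tract of 27 bp lay 757 bp from the TSS of Gdi2, a regulator of Rab proteins, and was the nearest to a TSS of the 9 AGC peaks. A (CAGCC)n repeat with a 54-bp tract lay 5421 bp upstream of Nelfcd, a subunit of the negative elongation factor, and a (CAGG)n repeat 14336 bp upstream of Pi16.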
